A study of Mus musculus with 2 samples.

Results

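Mir208a, Mir208b and Mir499 are the microRNA genes that lie inside myosin heavy chain genes of the mouse. They were found by name in the GENCODE M21 annotation, a rule that uses no count, and are 3 of the 2202 microRNA genes counted. The sequenced small RNA came from heart tissue of B6CASTF1/J males aged 10 days, which are offspring of a cross between the C57BL/6J and CAST strains. There was 1 group with 2 libraries, which the labels number as biological replicates 1 and 2, and no treatment, mutant or other tissue was part of the design. Each library has its own biological sample in the labels, but both carry a common donor identifier, and their treatment as separate animals rests on the replicate numbers and sample identifiers in the labels. The tissue is bulk heart and the RNA was limited to short fragments.

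A microRNA is cut from a hairpin in a longer transcript, and the mature form guides the silencing complex to messenger RNAs mainly through its seed, bases 2 to 8. Myh6 encodes the alpha myosin heavy chain, the fast motor of the adult mouse ventricle, and Myh7 encodes the slower beta chain that prevails before birth and returns under cardiac stress or low thyroid hormone. Myh7b encodes a related myosin and is transcribed in slow muscle and heart. In mice, miR-208a is known to be needed for the rise of beta myosin heavy chain under stress, and miR-208b and miR-499 are known to favour slow muscle fibre genes.

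The leading mature forms of the family are shown because their seeds relate the genes to each other. Sequences are from RefSeq on GRCm38.p6, written 5′ to 3′, with bases 2 to 8 in capitals.
miR-208a-3p: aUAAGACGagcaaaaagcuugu
miR-208b-3p: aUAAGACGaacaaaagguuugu
miR-499-5p: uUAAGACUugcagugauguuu
The opposite arms of the Mir208 hairpins share a seed with each other as well.
miR-208a-5p: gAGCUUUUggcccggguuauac
miR-208b-5p: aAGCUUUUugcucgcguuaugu
Names of the arms are those of the RefSeq table, and the 3p arm of the Mir208 hairpins and the 5p arm of Mir499 are known as the more abundant ones. The counts are per hairpin, so the arms were not told apart in the libraries.

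The seed UAAGACG was held by miR-208a-3p and miR-208b-3p and by no other of the 1738 mature forms in the table. miR-499-5p had the seed UAAGACU. All 3 forms share bases 2 to 7, and no other mature form in the table has these bases at that place. Over their whole length of 22 bases, miR-208a-3p and miR-208b-3p differ at 3 positions, all behind the seed. Counted from the 5′ end, with the base of miR-208a-3p first, these are G10A, A16G and C18U. The next relation is looser, since miR-499-5p matched miR-208a-3p at 12 of 21 positions and miR-208b-3p at 10 of 21. The seed of the 5p arms, AGCUUUU, was also held by 1 other mature form, miR-6415.

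The whole hairpins are shown because reads were counted over them, with the leading mature form in capitals.
Mir208a: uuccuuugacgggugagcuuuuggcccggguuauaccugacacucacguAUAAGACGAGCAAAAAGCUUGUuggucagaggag
Mir208b: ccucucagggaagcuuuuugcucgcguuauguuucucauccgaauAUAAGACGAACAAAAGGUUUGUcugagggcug
Mir499: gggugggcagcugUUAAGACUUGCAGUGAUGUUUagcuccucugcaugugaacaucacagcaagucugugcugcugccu
In a global alignment the Mir208a and Mir208b hairpins were identical at 65.9% of positions, and their longest common stretch was 10 bases. None of the 3 hairpins shared a stretch of 20 bases with any other counted hairpin, whereas 94 of the 340 detected genes (27.6%) did. Stretches were compared on both strands, so a gene opposite another at the same place counts as sharing. Detected means at least 10 counts in both libraries. Each of the 6 mature forms was found without mismatch in its own hairpin only. miR-208a-3p needed 3 mismatches to be placed on Mir208b, its nearest other hairpin, and miR-499-5p needed 4 to be placed on its nearest, Mir7055. Reads with several mapping positions were left out of the deposited counts, and within the counted hairpins each mature form of the family has a single exact place.

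Mir208a and Mir208b are neighbours on chromosome 14, and Mir499 is on chromosome 2. Mir208a (ENSMUSG00000065432.1) lies at chr14:54949060-54949142 on the minus strand of mm10, in intron 29 of a 39-exon transcript of Myh6. Mir208b (ENSMUSG00000077928.1) lies at chr14:54975700-54975776 on the minus strand, in intron 31 of a 41-exon transcript of Myh7. Mir499 (ENSMUSG00000076312.1) lies at chr2:155622880-155622958 on the plus strand, in intron 19 of a 42-exon transcript of Myh7b. All 3 are on the strand of their host.

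The host introns are short, at 542 bases for Mir208a, 461 bases for Mir208b and 481 bases for Mir499. The hairpins of Mir208a and Mir208b are 26557 bases apart, and the genes Myh6 and Myh7 are separated by 3756 bases. No other annotated gene overlaps any of the 3 hairpins on either strand. Mhrt, a long noncoding RNA known from the opposite strand of Myh7, was thus not among the overlapping genes, and its own position was not examined.

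**Figure D1:**
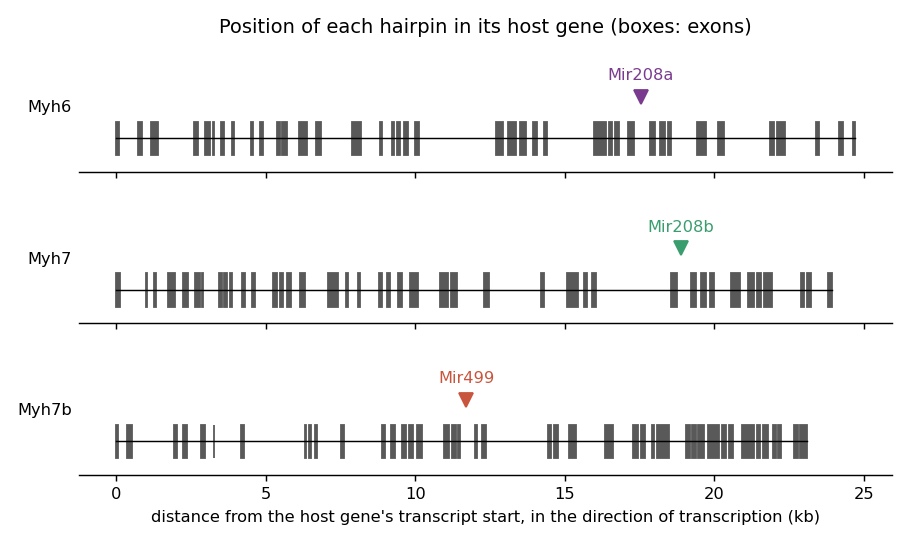
Exon maps of a principal GENCODE M21 transcript of Myh6, Myh7 and Myh7b, drawn from the transcript start in the direction of transcription (kb), with exons as boxes and a triangle at the hairpin. Mir208a and Mir208b lie in late introns of their hosts (introns 29 and 31), and Mir499 lies near the middle of Myh7b (intron 19).

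The libraries held 3748432 counts (replicate 1) and 6305782 counts (replicate 2) on the strand of the microRNA genes. The values below are counts scaled to a total of 1000000 (CPM). Reads that mapped to several places stayed outside these totals and took 36.8% of the reads of replicate 1 and 48.1% of those of replicate 2, so CPM values are levels among uniquely assigned reads. MicroRNA reads span a mature form, which is 21 or 22 bases for the leading form of each gene, so CPM values of these genes were compared without a correction for length. Intervals are exact binomial 95% intervals, cover counting error only, and do not cover the spread between animals. SDs are over the 2 libraries.

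All 3 genes were well detected in both hearts, with 2978 counts as the lowest value. Mir208a, known in mice to be restricted to the heart, was among them, and the tissue label states heart. Mir499 reached 13787 counts in replicate 1 (3678 CPM) and 47557 counts in replicate 2 (7542 CPM). It was the 38th and 23rd gene by level. Its mean was 5610 ± 2732 CPM (SD, n = 2).

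Mir208a reached 14227 counts in replicate 1 (3795 CPM) and 8590 counts in replicate 2 (1362 CPM). It was the 36th gene by level in replicate 1 and the 58th in replicate 2. It is the only member of the family that was higher in replicate 1. Its mean was 2579 ± 1721 CPM (SD, n = 2).

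Mir208b reached 2978 counts in replicate 1 (794 CPM) and 21714 counts in replicate 2 (3444 CPM). It was the 80th gene by level in replicate 1 and the 36th in replicate 2, the place that Mir208a held in replicate 1. Its mean was 2119 ± 1873 CPM (SD, n = 2), the widest spread of the family relative to its mean.

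**Figure D2:**
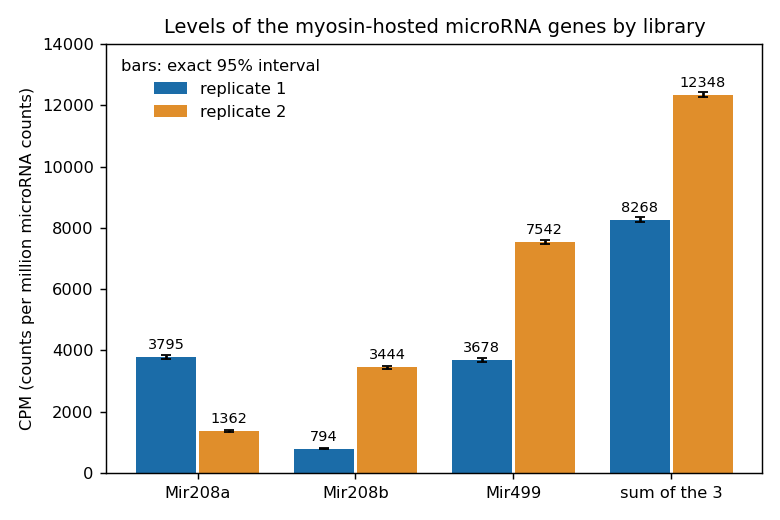
Levels of Mir208a, Mir208b, Mir499 and their sum in CPM, with 1 bar per library and exact 95% intervals of counting error. Mir208a is the only gene whose replicate 1 bar (3795 CPM) is above that of replicate 2 (1362 CPM).

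The order of the genes changed between the hearts. In replicate 1 Mir208a and Mir499 were nearly level, with a log2 ratio of Mir499 over Mir208a of -0.045 (interval -0.079 to -0.011), and Mir208b was far below both. In replicate 2 Mir499 led, Mir208b came next and Mir208a was lowest. Over the means of both libraries the order was Mir499, Mir208a and Mir208b, and the values of neighbours in that order overlapped over the libraries.

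Mir499 exceeded Mir208b in both libraries, and this was the only pair with a constant order. The log2 ratio was 2.21 in replicate 1 (interval 2.15 to 2.27) and 1.13 in replicate 2 (1.11 to 1.15), with a mean of 1.67 ± 0.76 (SD, n = 2). The log2 ratio of Mir499 over Mir208a was -0.045 in replicate 1 and 2.47 in replicate 2 (interval 2.44 to 2.50). That of Mir208a over Mir208b was 2.26 and -1.34. These 3 ratios are taken within a library and do not depend on the scaling between libraries.

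Of the counts of the 3 genes together, Mir208a made up 45.9% in replicate 1 (interval 45.3% to 46.5%) and 11.0% in replicate 2 (10.8% to 11.3%). Mir208b made up 9.61% in replicate 1 (9.28% to 9.94%) and 27.9% in replicate 2 (27.6% to 28.2%). Mir499 made up 44.5% in replicate 1 (43.9% to 45.0%) and 61.1% in replicate 2 (60.7% to 61.4%). Mir499 and Mir208a were thus near even in replicate 1, while Mir499 alone held most of the counts in replicate 2.

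**Figure D3:**
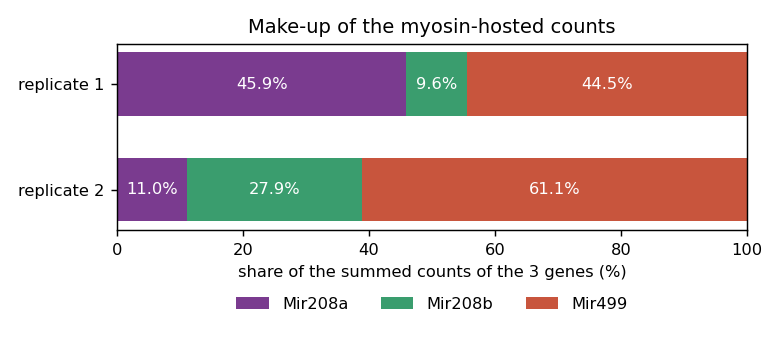
Share of each gene in the summed counts of Mir208a, Mir208b and Mir499 (%), with 1 bar per library. Mir208a holds 45.9% in replicate 1 and 11.0% in replicate 2, and the other genes hold more in replicate 2.

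The libraries were compared gene by gene after TMM scaling, which sets library sizes by the bulk of the genes. The test was an exact two-sided binomial test on the counts of the 340 detected genes, with Benjamini-Hochberg adjustment at 0.05. It compares 2 libraries of 1 group under counting error and says nothing about a condition. It called 72.1% of the genes, 37.9% as higher and 34.1% as lower in replicate 1. A difference of at least 2-fold as well was found for 19.7%. All 3 myosin-hosted genes passed both criteria. Most genes passed the first, so that call alone is no result about these 3.

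Mir208a was higher in replicate 1 with a log2 ratio of 1.34 (interval 1.30 to 1.37), a direction in which 9.41% of the genes were called at 2-fold or more. Mir208b was lower in replicate 1 with a log2 ratio of -2.26 (interval -2.31 to -2.20), and Mir499 was lower with -1.18 (interval -1.21 to -1.15). In this direction 10.3% of the genes were called at 2-fold or more. With library totals taken without the 10 most abundant genes, Mir499 had a log2 ratio of -0.91 and was no longer at 2-fold.

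The 3 genes did not share a sign, so their median log2 ratio of -1.18 is only the value of Mir499. The median was 0.049 over all 340 genes. The median size of the ratio was 1.34 for the 3 genes, against 0.54. By size, Mir208b was 11th, Mir208a 43rd and Mir499 53rd of the 340. The coefficient of variation over the libraries was 66.7% for Mir208a, 88.4% for Mir208b and 48.7% for Mir499. The coefficient that edgeR fitted over all detected genes was 0.416 (as a fraction of the mean). It is a different measure, fitted in common to all detected genes after TMM scaling and with counting error set apart. Those of the 3 genes are the SD over the mean of 2 CPM values. Among the 76 genes whose mean level reached 1000 CPM, where counting error is small, 16 (21.1%) differed by 2-fold or more, and the 3 genes were 4th, 11th and 15th by size.

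**Figure D4:**
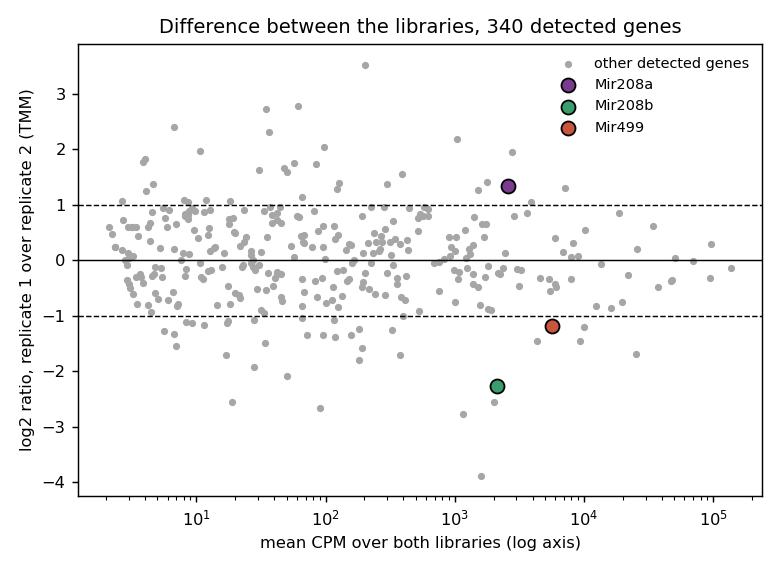
Log2 ratio of replicate 1 over replicate 2 after TMM scaling against mean CPM (log axis) for the 340 detected genes, with dashed lines at 2-fold. Mir208a (1.34) lies above the upper line, and Mir208b (-2.26) and Mir499 (-1.18) lie below the lower line.

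The levels of Mir208a and Mir208b differed in opposite directions, while their sum was close in both hearts. The sum was chosen after the separate values were seen. It was 4590 CPM in replicate 1 and 4806 CPM in replicate 2, with a mean of 4698 ± 153 CPM (SD, n = 2). The log2 ratio of the sum was -0.21 after TMM scaling (interval -0.24 to -0.18) and -0.066 with total counts, and it turned to 0.058 with library totals taken without the 10 most abundant genes. All of these are small beside the ratios of the separate genes. Over the 340 detected genes the median size of the ratio was 0.54, and the quartiles of the ratio were -0.47 and 0.61. A ratio near 0 is therefore not particular to this sum.

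The sum of all 3 genes was less even. It was 8268 CPM in replicate 1 (interval 8177 to 8360) and 12348 CPM in replicate 2 (12261 to 12434), with a log2 ratio of -0.72 (interval -0.74 to -0.70). Since the Mir208 sum was near level, most of the gap came from Mir499. As shares of all reads in the library, mapped or not, the 3 genes took 0.351% in replicate 1 and 0.457% in replicate 2. In bulk tissue, fewer cells of a type and less RNA per cell cannot be told apart.

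**Figure D5:**
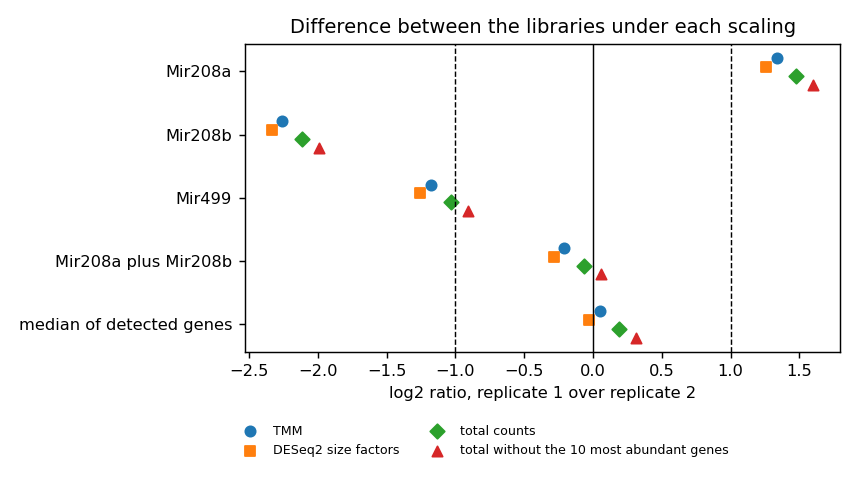
Log2 ratio of replicate 1 over replicate 2 for each gene, for Mir208a plus Mir208b and for the median of the 340 detected genes, with 1 symbol per scaling. Each gene keeps its side of 0 under the 4 scalings, Mir499 moves inside the 2-fold line with totals taken without the 10 most abundant genes (-0.91), and the Mir208 sum stays near 0 (-0.29 to 0.058).

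Each gene kept its direction under every scaling tried. Mir208a had log2 ratios of 1.26 with DESeq2 size factors, 1.48 with total counts and 1.60 with totals taken without the 10 most abundant genes. Those of Mir208b were -2.34, -2.12 and -1.99 in the same order. The median over all detected genes moved with the scaling by 0.14 (total counts) and 0.27 (totals taken without the 10 most abundant genes) against TMM. The size of each ratio depends on the choice of scaling by such shifts. They do not cover other errors of the ratio, such as the spread between animals.

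All reads counted for the 3 genes lay on the gene strand. No read was counted on the opposite strand of any of them in either library, so each count over both strands equalled the count on the gene strand. A count of 0 allows up to 3 counts, or 0.800 CPM in replicate 1 and 0.476 CPM in replicate 2. Over all microRNA genes the opposite-strand column held 26.5% as many counts as the gene strand in replicate 1 and 27.7% in replicate 2. The total of the both-strands column was nonetheless smaller than that of the gene strand. From equal counts, the sum of the 3 genes had a mean of 14163 CPM with it, against 10308 CPM with the gene strand. What the opposite-strand column holds over all genes was not tested, so its share is no background for the 0 counts here.

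Few other microRNA genes lie near the members. Within 500 kb, Mir208a and Mir208b had each other, Mir686 with no count in either library, and Mir6948 with 0 counts in replicate 1 and 2 counts in replicate 2. Mir499 had Mir695 within that distance, also with no count. None of these reached the limit of 3 counts.

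The other microRNA genes of striated muscle were far lower in these tables than the myosin-hosted ones. The 9 genes of that list summed to 399 CPM in replicate 1 and 282 CPM in replicate 2. The counts of the 3 myosin-hosted genes were 20.7 times those of the list in replicate 1 and 43.8 times in replicate 2. Mir486, of muscle and red cells, had 308 and 144 CPM. Mir3107, its partner on the opposite strand, had 12.3 and 8.40 CPM.

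Mir1a-2, a source of the abundant muscle microRNA miR-1, was at 43.2 CPM in replicate 1 and at 99.6 CPM in replicate 2. Mir206, known from skeletal muscle, was at 26.9 and 19.5 CPM. The remaining genes were Mir1a-1 with 13 and 19 counts, Mir133a-1 with 10 and 27, Mir133a-2 with 2 and 4, Mir133b with 6 and 10, and Mir1b with 1 and 6. Apart from Mir206, the hairpin of each of the 9 has a stretch of 20 bases in common with another one. Whether reads of miR-1, miR-133 or miR-486 were left out because of these stretches was not tested. The low counts are not read as a measure of these microRNAs in the tissue. Of the 6 detected genes of the list, Mir486 was called higher and Mir1a-2 lower in replicate 1 (log2 ratios 0.96 and -1.34), and only Mir1a-2 differed by 2-fold or more. Of all detected genes, 37.9% were called higher and 34.1% lower.

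Endothelial, smooth muscle and fibroblast markers were present in both libraries, and the sums of their lists were lower in replicate 1. The endothelial list, led by Mir126a, summed to 88957 CPM in replicate 1 and to 100563 CPM in replicate 2 (log2 ratio of the sum -0.32). The Mir126a hairpin has a stretch of 20 bases in common with 1 other counted hairpin. The smooth muscle list, led by Mir143, summed to 44790 and 53313 CPM (-0.39). The fibroblast list, led by Mir21a, summed to 3934 and 7945 CPM (-1.16). Mir21a makes up most of that sum, with 2474 and 6146 CPM (-1.46). Of the 4 detected genes of the list, 3 were called lower in replicate 1 and 1 higher. Over all detected genes, 34.1% were called lower and 37.9% higher.

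The erythroid list, led by Mir451a, summed to 9908 CPM in replicate 1 and 8704 CPM in replicate 2 (0.044). Mir451a makes up most of that sum and was called higher in replicate 1 (0.075), and the other gene of the list was called lower (-0.66). The Mir451a hairpin has 20 bases in common with 1 other counted hairpin. The leukocyte list, led by Mir155, summed to 1959 and 2192 CPM (-0.30), with 3 genes called lower in replicate 1 and 1 higher. The higher one was Mir155 itself (0.12), and 2 of the lower ones differed by 2-fold or more. Over all detected genes, 37.9% were called higher and 34.1% lower, and 10.3% were lower at 2-fold or more. The median log2 ratio of the 4 genes was -1.08. The epithelial list, led by Mir200c, summed to 468 and 543 CPM (-0.35). Mir122, of liver cells, had 57.9 and 77.7 CPM. The neural list held 2 counts in each library over its 6 genes, with Mir9-3 at 1 and 2 counts and 4 genes at 0 in both. The part of cell make-up in the difference of Mir208a, Mir208b and Mir499 was not tested.

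The genes most alike in level were sought by the distance in log2 CPM over both libraries, with 3 genes for each member. For Mir208a they were Mir107, Mir342 and Mir320 (distances 0.45, 0.52 and 0.79). Mir107 came closest, with 4485 CPM in replicate 1 and 1044 CPM in replicate 2. Its hairpin has 20 bases in common with 2 other counted hairpins, so its level may be uncertain.

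For Mir208b the nearest was Mir195a (distance 0.33), with 634 CPM in replicate 1 and 3377 CPM in replicate 2. Mir20a and Mir16-1 followed at distances of 0.98 and 0.99, so Mir195a alone was close. Mir16-1 shares 20 bases with 1 other hairpin and may be uncertain. For Mir499 they were Mir28a, Mirlet7f-2 and Mir125a (distances 0.45, 0.56 and 0.58), and all had a smaller gap between the libraries than Mir499, with log2 ratios of -0.55, -0.48 and -0.43. Mir28a and Mirlet7f-2 share such stretches with other hairpins and may be uncertain too. Stretches at another place and stretches opposite at the same place were not told apart. These likenesses rest on 2 libraries and are descriptions only.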

How the data were processed

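The authors deposited raw counts of reads per microRNA gene, 1 table per library, on mm10 with the M21 annotation, per the file headers of the accompanying text. The reads were aligned and counted by tools not given in the sources used here. The tables have 3 count columns without header. Their meaning (both strands, gene strand, opposite strand) was inferred from the values, and the gene strand was used. A further 4 entries that name no gene were left out of library sizes. All 2202 identifiers matched GENCODE M21. In replicate 1, 16.0% of the reads were unmapped and 4.78% lay outside the genes, and in replicate 2, 11.5% and 3.43%.

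CPM used the gene-strand total. TMM factors came from edgeR 4.0.16 and size factors from DESeq2 1.42.0, in R 4.3.3. Log2 ratios used a prior of 0.5 counts. Exact tests and Clopper-Pearson intervals came from scipy 1.17.1, and hairpins were aligned with Biopython 1.88. edgeR's quasi-likelihood test needs replicated groups and was not used. Across the 340 detected genes a chi-square of 978 per degree of freedom showed that the tables do not hold 1 library deposited again, which does not tell whether the libraries came from separate animals. The procedure was tested on simulated counts with counting error alone, which does not cover the spread between animals.

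The genes named are the 3 members, the striated muscle list, the leading gene of each of the other lists, counted genes within 500 kb and the 3 genes nearest in level to each member. All 39 list entries were matched, Mir486a and Mir486b through synonyms (Mir486 and Mir3107). The members are picked out by name, but the family and the lists were proposed with earlier results of these data known.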

Additional observations from a re-analysis of the deposited data

How the results depend on the processing

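No paired analysis was possible because there is 1 group. Nor can the difference between the libraries be computed without either of them. All 3 genes kept their direction and their call under each alternative scaling tried. They also kept them with the other count column, filter and prior, but these could hardly change either. No read lay on the opposite strand of these genes, and their lowest count was 2978. The number lower in replicate 1 at 2-fold or more was 1 in place of 2 with totals taken without the 10 most abundant genes. Over all genes, the number higher at 2-fold or more was 32, against 50 with total counts and 71 with totals taken without the 10 most abundant genes, and the number lower was 35, against 23 with the last of these.

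Levels depend on the denominator by construction. With totals taken without the 10 most abundant genes, the mean was 7370 for Mir208a, 5777 for Mir208b, 15483 for Mir499 and 28630 for their sum, each per 1000000. Per 1000000 of all reads, Mir499 had 2176 and the sum 4039. With the column for both strands the sum had 14163. The log2 ratio of Mir208a over Mir208b was -1.34 without replicate 1 and 2.26 without replicate 2, and that of Mir499 over Mir208a was 2.47 and -0.045. The log2 ratio of Mir208a plus Mir208b was -0.29 with DESeq2 size factors and 0.058 with totals taken without the 10 most abundant genes, alternatives added after the data were seen. With 2 libraries from 1 group, the depth is ample for these genes, and the number of animals limits what the values show.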
